A study of Homo sapiens with 2 samples.

Results

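Long intergenic noncoding RNAs (lincRNAs) made up 117 of the 1415 genes in a table of RNA levels from A549 cells with and without the acetyltransferase NAT10. The members were taken by the gene type given in the table, lincRNA, without regard to their values. The same table held 798 protein-coding genes, which serve here for comparison. A549 is an established human lung adenocarcinoma line. One group was wild-type A549 cells, labelled Control. The other, labelled NAT10 ko1, was A549 in which NAT10 had been knocked out by CRISPR/Cas9 with a pair of guide RNAs and kept as a stable line, for which the study isolated clones of single cells. Each group had 1 total RNA library, so any difference between the libraries carries no replicate check, and a difference between the knockout line and its parent cannot be told apart from one between any 2 cultures.

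LincRNAs are transcribed by RNA polymerase II from stretches between protein-coding genes, and are often capped, spliced and polyadenylated like mRNAs but carry no long open reading frame. Most are found at low levels and in few cell types, and those that have been studied act in the nucleus on chromatin or splicing, or in the cytoplasm on mRNA and protein partners. NAT10 writes N4-acetylcytidine (ac4C) on cytidines of ribosomal RNA, transfer RNA and mRNA, so the comparison asks which RNAs differ in level when the writer is missing.

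Levels were given as RPKM, reads scaled to exon length and library size, which can be compared between genes. The authors limited the table to genes that differed between the libraries, and the smallest difference among the lincRNAs above 0 in both libraries was 1.02 on the log2 scale. The direction and size of each difference below are therefore descriptions of genes already selected for differing. NAT10 itself was not among the genes analysed here, so its level could not be checked. Whole reads could be recovered for 1342 of the 1415 genes, and the effective library sizes were 6077933 (control) and 5474964 reads (knockout). Of 13 epithelial and lung adenocarcinoma markers 2 were listed, MUC5B and CDH1, both lower in the knockout. Of 6 fibroblast markers only COL1A1 was listed, and of 4 endothelial and 5 leukocyte markers none was. A marker at an equal level in both libraries would not be in such a table, so the cell type could not be checked against these lists.

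The transcripts at the 3 highest levels show what kind of member led the group. CR392039.3 (ENSG00000279501) lies on the minus strand of chromosome 21, within 8996496 to 9018670 of hg38, and its 2 exons give an RNA of 227 nucleotides. Capitals mark the bases that lie in a stretch of 50 bases found also in a transcript of a gene elsewhere in the genome, 214 of the 227.
CR392039.3: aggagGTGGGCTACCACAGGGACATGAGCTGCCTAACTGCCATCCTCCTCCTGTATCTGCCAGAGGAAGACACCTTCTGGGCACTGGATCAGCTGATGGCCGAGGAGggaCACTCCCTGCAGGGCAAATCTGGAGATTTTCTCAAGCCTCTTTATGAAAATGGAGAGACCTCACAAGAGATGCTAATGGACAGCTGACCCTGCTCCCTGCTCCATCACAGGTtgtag
AC026785.3 (ENSG00000249199), on the minus strand of chromosome 5 within 17369225 to 17375577, has 2 exons and 285 nucleotides, and shares no such stretch. In the following transcripts capitals mark each match to the repeat that the study names for ac4C sites, a C followed by any 2 bases, 4 times in a row, on the RNA strand.
AC026785.3: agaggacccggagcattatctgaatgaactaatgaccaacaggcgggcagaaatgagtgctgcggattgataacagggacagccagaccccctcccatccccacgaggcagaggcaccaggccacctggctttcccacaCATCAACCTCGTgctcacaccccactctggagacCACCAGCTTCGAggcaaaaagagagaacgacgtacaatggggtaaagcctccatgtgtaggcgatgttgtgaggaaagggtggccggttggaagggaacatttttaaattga
IGFL2-AS1 (ENSG00000268621), on the minus strand of chromosome 19 within 46189166 to 46203083, has 7 exons covering 1751 bases, and the transcript shown is one of 294 nucleotides.
IGFL2-AS1: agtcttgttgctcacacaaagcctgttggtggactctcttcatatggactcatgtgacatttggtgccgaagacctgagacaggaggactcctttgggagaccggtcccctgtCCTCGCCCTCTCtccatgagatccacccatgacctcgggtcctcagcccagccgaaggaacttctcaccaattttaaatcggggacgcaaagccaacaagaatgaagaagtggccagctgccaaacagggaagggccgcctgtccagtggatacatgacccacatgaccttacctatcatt
AC026785.3 held 2 matches in capitals and the IGFL2-AS1 transcript held 1. A match is a match of letters and not a measured site of acetylation. All transcripts are from GENCODE release 29.

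By level per length, the lincRNAs in this table were close to the protein-coding genes. Their median was 0.591 RPKM in the control and 0.576 RPKM in the knockout, against 0.638 and 0.488 RPKM for protein-coding genes and 0.775 and 0.626 RPKM for all listed genes. The mean of both libraries reached 1 RPKM in 45 of the 117 lincRNAs (38.5%) and in 275 of the 798 protein-coding genes (34.5%). High levels were rarer among lincRNAs, since 3 (2.56%) reached 5 RPKM and 2 reached 10 RPKM, against 56 (7.02%) and 29 protein-coding genes. The low end was different again. The lincRNA exons covered a median of 1499.5 bases and those of the protein-coding genes 4583 bases, so 5 reads, the fewest of any listed gene, were worth 0.549 RPKM in a lincRNA of median length and 0.180 RPKM in a coding gene of median length.

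**Figure D1:**
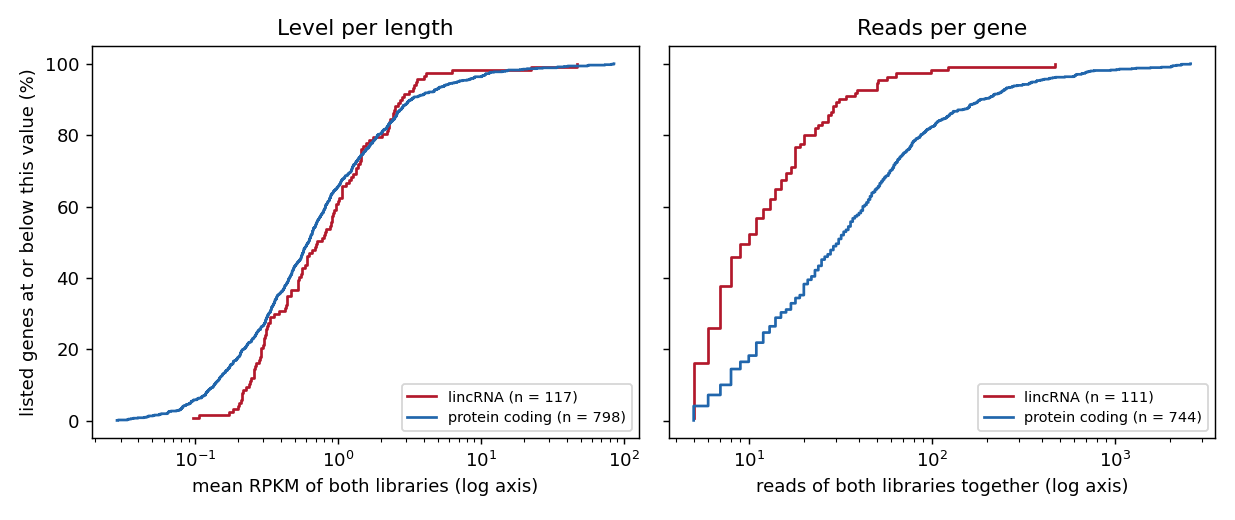
Cumulative share of listed genes, in percent, against the mean RPKM of both libraries (left, log axis) and against the reads of both libraries together (right, log axis), for lincRNAs (red) and protein-coding genes (blue). The curves run close together by RPKM, with medians of 0.716 and 0.621, and lie far apart by reads, with medians of 10 and 31.

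In reads, the lincRNAs were thinly covered. Their reads were recovered for 111 of 117 members, with a median of 10 reads in both libraries together and a highest value of 472. The protein-coding genes had a median of 31 reads. Under 20 reads stood behind 86 of the 111 lincRNAs (77.5%) and behind 262 of 744 protein-coding genes (35.2%). Among all listed genes with recovered reads the count was 673 of 1342 (50.1%). The recovered lincRNA reads together came to 1249 in the control and 978 in the knockout, 0.0205% and 0.0179% of the effective library sizes. Members without recovered reads, among them LINC01468, are not in these sums. IGFL2-AS1 alone gave 30.7% of the control reads and 9.0% of the knockout reads. Scaled to library size, the lincRNA sum in the knockout was 0.869 of the control's. Without IGFL2-AS1 it was 1.14 of the control's, so that this member decided the direction of the sum. For the protein-coding genes the same ratio was 0.689.

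LincRNAs were split evenly by direction, while more protein-coding genes were lower than higher. Of the 117 lincRNAs, 59 (50.4%) had a lower RPKM in the knockout and 58 a higher one. Of the protein-coding genes 490 (61.4%) were lower and 308 higher, and of all listed genes 806 (57.0%) were lower. On the log2(RPKM + 1) scale, which understates the change of genes with low values, 27 lincRNAs were lower by over 1, or 23.1% of them, where 19.4% of all listed genes and 12.2% of protein-coding genes were. Another 23 lincRNAs, or 19.7%, were higher by over 1, where 13.4% of all listed genes and 4.64% of protein-coding genes were. With 0.1 RPKM added in place of 1 the counts were 57 lower and 53 higher, and with 5 RPKM added they were 1 and 1. In RNA from a whole culture, fewer cells of a type and less RNA per cell cannot be told apart. The median difference of the lincRNAs was -0.23, beside -0.32 for protein-coding genes and -0.32 for all genes. Since members lie on either side of 0, with medians of -0.74 for the lower and 0.88 for the higher ones, this median turned to 0.61 among the members with a mean of at least 1 RPKM.

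Counting error was set against each ratio by the 95% Clopper-Pearson interval of the share of a gene's reads that came from the knockout library. The reads carry no molecular identifiers, so these intervals cover counting error only, and not the spread between cultures. The genes were selected for differing between these libraries, so an interval that leaves out no change is no independent support. The interval lay wholly below no change in 29 of the 111 lincRNAs, 26.1% of them against 39.0% of all listed genes with reads. It lay wholly above in 35, or 31.5% against 33.4% of all listed genes. For the other 47 lincRNAs the interval included no change, so at this depth the difference was within counting error. For protein-coding genes the interval left out no change in 603 of 744 (81.0%). Among the 25 lincRNAs with at least 20 reads, 12 were lower and 13 higher, and the interval left out no change in 8 and 11 of them. Among all 669 listed genes with at least 20 reads it did so in 357 of 402 lower and 247 of 267 higher genes.

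**Figure D2:**
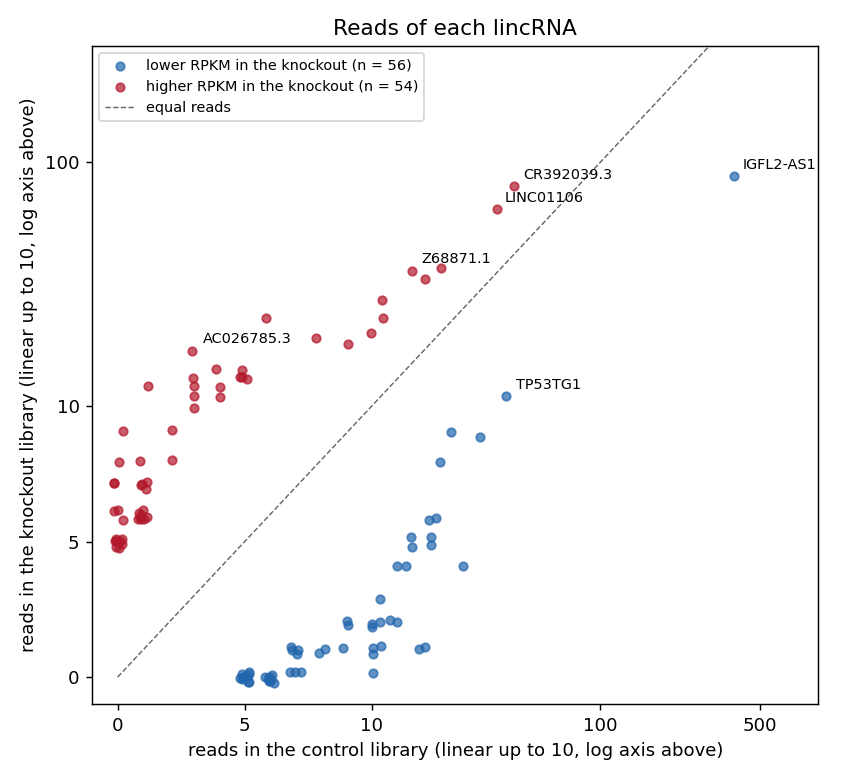
Reads of 110 lincRNAs in the control (horizontal) and the knockout library (vertical), both axes linear up to 10 and log above, with points shifted by up to 0.22 reads so that equal ones can be seen. Blue points have a lower and red points a higher RPKM in the knockout, the dashed line marks equal reads, and most points lie below 20 reads in all, with IGFL2-AS1 (384 and 88) far to the right.

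Among the 10 lincRNAs at the highest mean levels, 6 were higher and 4 lower in the knockout. CR392039.3 stood first, at 30.4 RPKM in the control and 64.4 RPKM in the knockout, on 42 and 80 reads. Its log2 ratio was 1.08, with an interval of 0.52 to 1.66. It ranked 12 among all 1415 listed genes by mean RPKM. With 65.2% of its 50-base stretches found also in transcripts of 6 other genes, among them the lincRNA AL772155.1, its reads could have come from any of those copies, and its level is uncertain.

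IGFL2-AS1, an antisense transcript of the locus of the IGFL genes, which encode small secreted insulin growth factor-like proteins, was the lincRNA with the most reads. It stood at 36.1 RPKM in the control and 9.18 RPKM in the knockout, from 384 and 88 reads. This gave a log2 ratio of -1.97, with an interval of -2.33 to -1.64. No 50-base stretch of it was found in a gene elsewhere. Genes that overlap its span were left out of that search. Every other listed gene within 100 kb was lower too. The pseudogene IGFL1P1, 6845 bp away by start site, had 29 and 7 reads (13.3 and 3.55 RPKM). Its start lies within the span of IGFL2-AS1, so it is not a separate neighbour, and whether they share reads was not tested. IGFL2, which encodes a member of the family, had 9 and 1 reads. The neighbouring lincRNA AC006262.2 had 8 and 1 reads, with an interval of -8.32 to 0.05 that included no change. With IGFL2-AS1 itself, 4 listed genes lay within this distance, and 3 of them had intervals below no change.

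AC026785.3 had the largest log2 ratio toward the knockout among the highest 10. It stood at 1.73 RPKM in the control and 10.9 RPKM in the knockout, on 3 and 17 reads. Its log2 ratio was 2.65, with an interval of 0.86 to 5.07, wide because the control held only 3 reads. Z68871.1, on the X chromosome at 102884414 to 102906158, had 2.18 and 5.80 RPKM from 15 and 36 reads, with an interval of 0.51 to 2.39. LINC01106, on chromosome 2 at 110375138 to 110384442, had 2.08 and 4.21 RPKM from 35 and 64 reads, with an interval of 0.41 to 1.66. Of its 50-base stretches 89.2% were shared, most of them with the lincRNA LINC01123, so these reads cannot be assigned to LINC01106 alone.

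TP53TG1, named as a target gene of the tumour suppressor p53, was the second of the lower members by level and lies on chromosome 7 at 87325225 to 87345515. It had 6.27 RPKM in the control and 1.96 RPKM in the knockout, on 39 and 11 reads. Its log2 ratio of -1.68 had an interval of -2.79 to -0.68. Its start site lies 166 bp from that of CROT, a peroxisomal carnitine octanoyltransferase gene transcribed the other way, and CROT was not among the listed genes. LINC01186, on the X chromosome at 46325924 to 46327645, had 4.99 and 1.75 RPKM from 19 and 6 reads, with an interval of -3.13 to -0.13. Both lay below no change, the second by little.

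The remaining members of the highest 10 were within counting error. AL353804.1 had 1.82 and 5.26 RPKM from 5 and 13 reads, AC068870.2 had 1.69 and 5.16 RPKM from 4 and 11 reads, and AC233309.1 had 4.82 and 2.19 RPKM from 22 and 9 reads. Their intervals reached from -0.05 to 3.37, from -0.14 to 3.72 and from -2.44 to 0.04. A level of 5 RPKM in so short an RNA rests on few reads, as AC068870.2 shows, whose single exon has 389 bases.

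**Figure D3:**
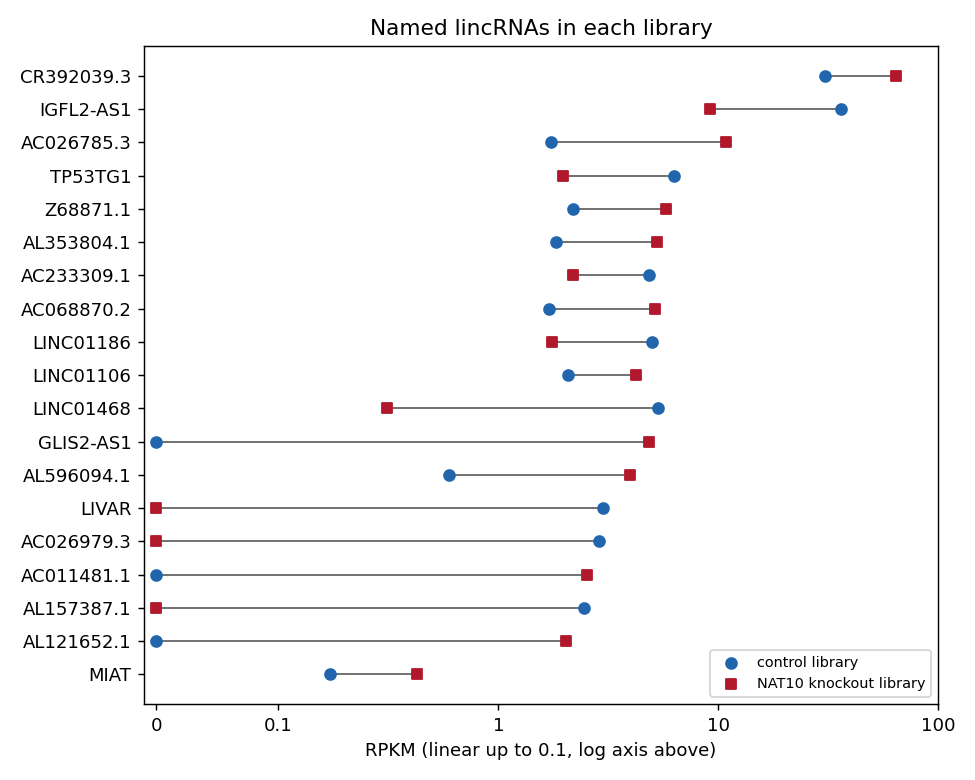
RPKM of the 19 named lincRNAs in the control (blue circles) and the NAT10 knockout library (red squares), ordered by mean level, on an axis linear up to 0.1 and log above. Lines join the 2 values of a gene, and points at the left edge are listed at 0. The higher and lower members are mixed along the whole range of levels.

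Many of the largest differences were of members listed at 0 in 1 library. This held for 37 of the 117 lincRNAs (31.6%), of which 22 were at 0 in knockout cells and 15 in control cells. Among protein-coding genes it held for 114 of 798 (14.3%), and among all listed genes for 275 of 1415 (19.4%). The evidence behind such members was thin, since 10 lincRNAs had 5 control reads and 0 knockout reads, and 8 had 0 and 5. For 5 and 0 reads the interval included no change, reaching 0.28. For 0 and 5 reads it began at 0.02, the control library being the larger. These 8 are therefore among the 35 members with an interval above no change, and the 10 are not among the 29 below.

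GLIS2-AS1, on chromosome 16 at 4324667 to 4328340, overlaps GLIS2, a zinc finger transcription factor gene on the other strand. It was listed at 0 in the control and at 4.83 RPKM in the knockout. Its reads were 0 and 9. The interval of its log2 ratio began at 1.13 and was open above. AC011481.1 and AL121652.1 were listed at 0 in the control and at 2.53 and 2.04 RPKM in the knockout, each from 5 reads, with intervals that began at 0.02. AL596094.1 had 0.596 and 3.97 RPKM from 1 and 6 reads, with an interval of -0.31 to 8.26 that included no change, and its exons overlap exons of the protein-coding gene GDI2.

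On the other side, LIVAR, on chromosome 18 at 70335929 to 70337310, had 3.0 RPKM in the control from 7 reads and was listed at 0 in the knockout. AC026979.3, whose start lies 65 bp from that of the dynactin subunit gene DCTN6, had 2.86 RPKM from 7 control reads and was also listed at 0 in the knockout. For both the interval of the log2 ratio ended at -0.38. AL157387.1 had 2.46 RPKM from 5 control reads and 0 in the knockout, and its interval included no change. It overlaps ANKRD30A on the same strand, a gene whose reads were 49 and 0. The pseudogene LINC00993, 7231 bp away, had 12 and 0 reads. How the reads of these overlapping genes were assigned is not given in the sources used here.

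On the log2(RPKM + 1) scale, LINC01468 showed the largest fall, -2.27, among the members with levels at or above the lincRNA median. With 0.1 RPKM added it was -3.72, behind LIVAR, AC026979.3 and AL157387.1, and with 5 RPKM added it was -0.96, behind IGFL2-AS1. It stood at 5.31 RPKM in the control and 0.310 RPKM in the knockout, a log2 ratio of -4.10. No whole reads were recovered for it, so it has no counting interval. It lies on the minus strand of chromosome 10 at 52450874 to 52755409, and the nearest protein-coding gene by start site is MBL2, which encodes mannose-binding lectin, at 16291 bp.

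**Figure D4:**
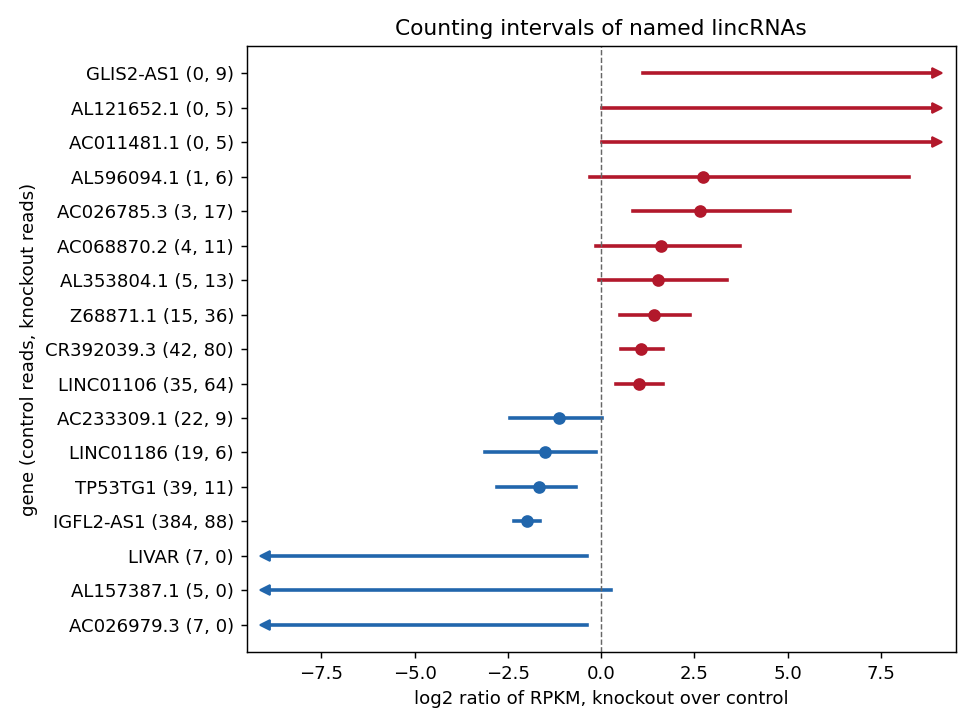
Log2 ratio of RPKM, knockout over control (points), with its 95% counting interval (bars) for the 17 named lincRNAs whose reads were recovered. Arrows mark open intervals of genes with 0 reads in 1 library, and read numbers stand beside each name as control, then knockout. IGFL2-AS1 has the narrowest interval, -2.33 to -1.64, and the intervals of AL596094.1, AC068870.2, AL353804.1, AC233309.1 and AL157387.1 cross 0.

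Of a chosen list of 62 lincRNAs with a described role, 3 were in the table, and 1 of these had the lincRNA type. That list leaves out other named members such as TP53TG1, MEG8, EGOT and SPRY4-IT1. The one typed as lincRNA was MIAT, a nuclear transcript first linked to myocardial infarction, at 0.172 RPKM in the control and 0.429 RPKM in the knockout. Its reads were not recovered. CASC19 and TINCR, listed under other types, were both lower, CASC19 with 36 and 9 reads. Of 23 microRNA host genes 2 were listed, MIR100HG at 2.69 and 0.763 RPKM and MIR31HG at 17.9 and 6.13 RPKM, neither typed as lincRNA. Of 24 snoRNA host genes none was listed. A gene missing from a table of this kind may have been unchanged or too low to call.

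By name, 71 of the 117 lincRNAs carried only a clone-based name, 33 lower and 38 higher. LINC symbols were held by 28 members, 16 lower and 12 higher. Antisense or intronic symbols were held by 8, 4 in each direction. The other 10 symbols included EGOT, an eosinophil transcript, with 5 and 0 reads. Against the annotation, the lincRNAs in the table were longer than lincRNAs at large. Their exons covered a median of 1499.5 bases where the 7629 lincRNAs of GENCODE release 29 have a median of 759. The table held 1.48% of those annotated lincRNAs, and 3.99% of the 19951 annotated protein-coding genes.

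In gene structure the members were simple. Their median was 2 exons, against 9 in the listed protein-coding genes. A single exon was found in 39 of 116 members with an annotation entry, 14 of them lower and 25 higher. It was found in 286 of 1408 listed genes, in 38 of 796 protein-coding ones and in 16.2% of annotated lincRNAs. The split by direction was not counted for other single-exon listed genes, so it is not shown to be particular to lincRNAs. SPRY4-IT1, at 1.17 RPKM in the control and 3.38 RPKM in the knockout, had no entry. The C repeat (CNN, 4 times in a row on the RNA strand, overlapping matches counted) was present in the longest transcript of 107 of 116 lincRNAs (92.2%), of 99.2% of listed protein-coding genes, and of 83.9% of annotated lincRNAs. The median density was 5.92 matches per kb in the listed lincRNAs and 8.67 in the listed protein-coding genes. Lower lincRNAs had a median of 6.24 and higher ones 5.31, beside interquartile ranges of 3.21 to 10.2 and 2.23 to 8.67. The ranges overlap over most of their length.

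RefSeq promoters, the 250 bases before to 50 after a gene's start on GRCh38.p14, were matched for 22 of the members. TP53TG1 and LINC01186 are shown because both were among the highest 10 and lower in the knockout while their promoters differ widely in CpG. Capitals mark CpG dinucleotides, read 5′ to 3′ on the gene's strand.
TP53TG1 promoter, minus strand, chr7:87345443-87345742: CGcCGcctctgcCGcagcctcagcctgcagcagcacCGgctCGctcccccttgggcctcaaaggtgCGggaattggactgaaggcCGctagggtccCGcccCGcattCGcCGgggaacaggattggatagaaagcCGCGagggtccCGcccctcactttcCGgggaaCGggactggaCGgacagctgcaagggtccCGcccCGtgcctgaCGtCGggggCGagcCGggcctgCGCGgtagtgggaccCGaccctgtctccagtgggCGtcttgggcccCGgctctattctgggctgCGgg
LINC01186 promoter, minus strand, chrX:46327625-46327924: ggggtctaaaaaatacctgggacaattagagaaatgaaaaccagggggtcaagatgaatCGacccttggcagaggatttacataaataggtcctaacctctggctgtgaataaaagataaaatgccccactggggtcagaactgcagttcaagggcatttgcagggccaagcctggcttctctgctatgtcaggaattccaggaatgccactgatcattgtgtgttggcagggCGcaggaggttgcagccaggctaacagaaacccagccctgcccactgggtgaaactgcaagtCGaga
The first held 29 CpG and the second 3. Over the 22 members the median was 19 CpG, with a range of 2 to 38, beside 14 in all 35116 promoters and 21 in those of protein-coding genes. At least 15 CpG were found in 12 members (54.5%) and in 48.9% of all promoters. The median was 22.5 in the 12 lower and 14.5 in the 10 higher members, with quartiles of 8 to 30 and 5.5 to 29.25. TATAAA on the gene's strand was present in 2 of 22 (9.09%) and in 7.33% of all promoters.

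The lincRNAs lay at widely differing distances from protein-coding genes. The median distance from start to start was 27710 bp in the 116 members with a position. It was within 1 kb in 26 members, 10 to 100 kb in 52 and beyond 100 kb in 24. A start within 1 kb of that of a coding gene on the other strand, pointing away from it, was found in 20 members, 9 lower and 11 higher. The gene span overlapped a protein-coding gene in 32, of which 22 were lower and 10 higher. Exons overlapped coding-gene exons in 18, 12 lower and 6 higher. These counts were not made for other genes, so they are not shown to be particular to lincRNAs. Whether the reads were counted by strand is not given in the sources used here, so in these 18 members reads of the partner cannot be told apart from their own. Without them the lincRNAs were 47 lower and 52 higher, and their median log2(RPKM + 1) difference was 0.29 in place of -0.23. This alternative was chosen after the values were seen.

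EPHA5-AS1 was one such member, named here after its values were seen. It had 2.22 RPKM in the control and 0.145 RPKM in the knockout, from 17 and 1 reads, with an interval of -9.32 to -1.26. EPHA5, a receptor tyrosine kinase for ephrins whose start lies 534 bp away on the other strand, had 70 and 5 reads, with an interval of -5.32 to -2.37. Their exons overlap, so the pair may share reads.

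A listed gene of any type lay within 100 kb of 27 of the 116 lincRNAs (23.3%), and the nearest one differed in the same direction in 21 of them (77.8%). Among protein-coding genes 164 of 796 (20.6%) had a listed neighbour, of the same direction in 117 (71.3%). Among all listed genes the share in the same direction was 68.6%. Pairs of neighbouring lincRNAs were counted from both sides. One of them was MIAT with Z99774.1 on chromosome 22, which had 0 and 7 reads. Another was MEG8, of the imprinted DLK1-MEG3 region on chromosome 14, at 0.421 and 0.208 RPKM, with AL117190.1, which had 9 and 2 reads and an interval of -5.27 to 0.25. The spans of the partners overlap in both pairs, so they may share reads. Genes with overlapping spans, EPHA5-AS1 and EPHA5 among them, were counted in the shares of the same direction. All 6 lincRNAs on chromosome 14 were lower, MEG8 and AL117190.1 among them, as were all 3 on chromosome 18. On chromosome 2 there were 5 lower and 8 higher, and on chromosome 1 there were 5 lower and 7 higher. Directions by chromosome were not counted for other listed genes, so no chromosome is shown to differ from the rest.

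The lincRNA AC007952.4 on chromosome 17 had 2.32 RPKM in the control and 0.573 RPKM in the knockout, from 9 and 2 reads, with an interval of -5.27 to 0.25. SNORD3B-2, a gene for the U3 small nucleolar RNA of ribosomal RNA processing, 48500 bp away, had 7 and 397 reads, or 1.46 and 91.7 RPKM. Of the 50-base stretches of AC007952.4, 81.8% were found also in U3 genes, so its reads are uncertain. In all, 37 lincRNAs shared at least 1 such stretch with a gene elsewhere, 79 shared none, and 3 shared at least 50%, namely LINC01106, AC007952.4 and CR392039.3.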

How the data were processed

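Libraries were made from total RNA (SMARTer mRNA-seq kit) of A549 control cells and the NAT10 knockout line, and the submitters' processing notes name genome build hg38. The authors deposited RPKM per gene and library, limited to genes that differed. Their columns of log2 fold change, p-value and adjusted p-value were not used. The aligner, counter, annotation and strand handling are not given in the sources used here. Samples were grouped by title, 1 library per group, so no p-value was computed.

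Members and gene lists were chosen with earlier results of these data known. The named genes were the 10 lincRNAs with the highest mean RPKM, the 5 largest falls and 5 largest rises on log2(RPKM + 1) among members at or above their median level, and members of the 3 gene lists. Genes on chromosome Y were counted but not named or plotted by reads.

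Reads were recovered as RPKM times GENCODE release 29 exon length times an effective library size, within 0.01 of a whole number, for 1342 of 1415 genes. The recovery was tested on data simulated with these same exon lengths. That test could not show whether the lengths match the annotation that the authors used. The effective library sizes, 6077933 and 5474964, set the precision together with each gene's reads. Counting intervals were 95% Clopper-Pearson. Analyses used Python 3.11.15, numpy 2.4.6, pandas 2.3.3, scipy 1.17.1 and matplotlib 3.10.9. Alternatives were other pseudocounts (0.1 and 5 RPKM), minimum levels, a read minimum, the counting interval, and leaving out members that overlap or share sequence with other genes.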

Additional observations from a re-analysis of the deposited data

How the results depend on the processing

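No paired analysis was possible because each group had 1 library. The lower and higher lincRNAs, 59 and 58, came to 35 and 39 at a mean of at least 0.5 RPKM, 22 and 23 at 1 RPKM, 10 and 12 above 20 reads, and 29 and 35 where the counting interval left out no change. The last 35 include 8 members with 0 and 5 reads, while the 10 with 5 and 0 reads are not among the 29. Members over 1 apart on log2(RPKM + 1), 27 lower and 23 higher, came to 57 and 53 with 0.1 RPKM added and to 1 and 1 with 5 RPKM added. The median difference, -0.23, was -0.76 and -0.054 with these pseudocounts and 0.61 at a mean of at least 1 RPKM. The median control level, 0.591 RPKM, was 1.21 RPKM at a mean of at least 0.5 RPKM. Members listed at 0 in the knockout and in the control, 22 and 15, came to 10 and 7 at that minimum and to 0 and 0 above 20 reads. These minimums leave fewer members by construction. In alternatives chosen after seeing the data, the median difference was 0.29 without members whose exons overlap coding exons. It was -0.32 without members that share 50 bases with a gene elsewhere, where 38 members were higher. The cause was not tested. Among the 19 named lincRNAs the difference moved by less than the interval's own reach to either side for 11 under each pseudocount. The other 8 moved more or had no closed interval. Depth limits most statements, since 86 of 111 lincRNAs had under 20 reads, and 1 library per group leaves the spread between cultures unknown.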
